A study of Mus musculus with 14 samples.

Results

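The subject here is a set of 34 mouse genes that mark the supporting cells of bone marrow, of 52550 genes counted in the series. They were chosen by name, as genes of fibroblasts, osteoblasts, reticular cells and endothelium that are present in marrow preparations and lost from cultured leukemia cells. By role, 13 code for extracellular matrix, 9 mark reticular niche cells, 5 mark osteoblasts and 7 mark endothelium. All were measured by sequencing of total RNA after ribosomal RNA depletion.

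The samples were 14 libraries from C57BL/6 mice aged 8 to 20 weeks. Of these, 4 were wild-type (WT) marrow preparations from which mature blood cells had been removed with an antibody-based kit to leave hematopoietic stem and progenitor cells (HSPCs), and 4 were the same preparations from mice in which Mir139 was deleted with CRISPR-Cas9 (Mir139KO). The other 6 (MLL-AF9) were WT HSPCs into which a retroviral vector had brought the leukemia fusion gene MLL-AF9. In 3 of them (replicates 1 to 3) the vector was pMSCV-MLL-AF9-neo, with neomycin resistance, and in 3 (replicates 4 to 6) it was pMSCV-MLL-AF9-puro, with puromycin resistance. These cells had been selected with the drug and replated in semi-solid medium, so they came from outgrowing cultures, and no library was of HSPCs cultured without MLL-AF9. Culture and fusion gene therefore cannot be told apart in any comparison with HSPCs. The labels give each HSPC library a number of its own, and some numbers share their first digits, but they do not say what the numbers stand for. They do not say which animals or cultures the replicates came from either, and the p-values below measure only the spread between these libraries.

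Blood stem cells lie in the marrow beside reticular cells, bone-lining cells and the endothelium of sinusoids. Reticular cells that carry the leptin receptor secrete Cxcl12, which holds stem cells in place through the receptor Cxcr4, and Kit ligand, which keeps them alive through Kit. Osteoblasts lay down type I collagen and mineral-binding proteins, and endothelial cells carry receptors for vascular growth factors and adhesion molecules. Several of these genes are not private to stroma. Fn1, Vcam1 and Spp1 are also made by macrophages, Pecam1 by platelets and leukocytes, Tek by stem cells and Flt1 by monocytes.

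Total counts were 35016668 to 45877994 per library, and values are CPM, a gene's counts brought to a common library size with TMM factors. A count of 3, taken as the floor, was worth 0.0544 to 0.129 CPM. Mir139 itself had 0 counts over the 14 libraries, so the knockout could not be checked from it. The HSPC libraries fell into a low and a high class by the share of counts in the noncoding gene Gm26917, split at 25%. WT replicates 1 and 2 and Mir139KO replicates 2 and 3 were under that share, and the other 4 HSPC libraries were over it. MLL-AF9 replicates 4 and 6 differed from each other by a chi-square of 10.8 per gene, against 78.9 to 483 for the other pairs with the same vector. This was above sampling noise, but libraries of a single culture can also differ by more than that. Whether replicates 4 and 6 came from separate cultures is not known. They were kept as separate samples and count separately in the p-values, which may overstate the evidence. Fold changes that moved by over 1.5 times without them are also given without them.

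The 34 genes together took 1812 to 3537 CPM in the 8 HSPC libraries. In the 6 MLL-AF9 cultures the sum was 51.5 to 1208 CPM, and the upper end came from Fn1 in replicates 4 and 6. Without Fn1 the sum was 520.4 to 2837 CPM in HSPCs and 48.6 to 183 CPM in MLL-AF9 cultures, so the groups did not overlap. Col1a1, Col1a2 and Fn1 made up 79.2 to 87.8% of the sum in every HSPC library. On the scale of CPM per kilobase of exon, the order of mean levels in HSPCs began with Col1a1 (101) and Fn1 (99.3), followed by Col1a2 (27.5), Pecam1 (14.7) and Sparc (14.2). It ended with Emcn (0.0759), Ptprb (0.0421) and Postn (0.0139). In MLL-AF9 cultures the order of mean levels per kilobase began with Fn1 (27.8), Spp1 (24.9), Pecam1 (8.80) and Igfbp7 (4.67). In the HSPC order the typical endothelial genes Cdh5, Emcn and Ptprb were in the lower part (ranks 25, 32 and 33 of 34), as was Col3a1 (rank 30), while Col1a1 and Col1a2 had ranks 1 and 3. These are bulk libraries, in which fewer cells of a type and less RNA per cell cannot be told apart.

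**Figure D1:**
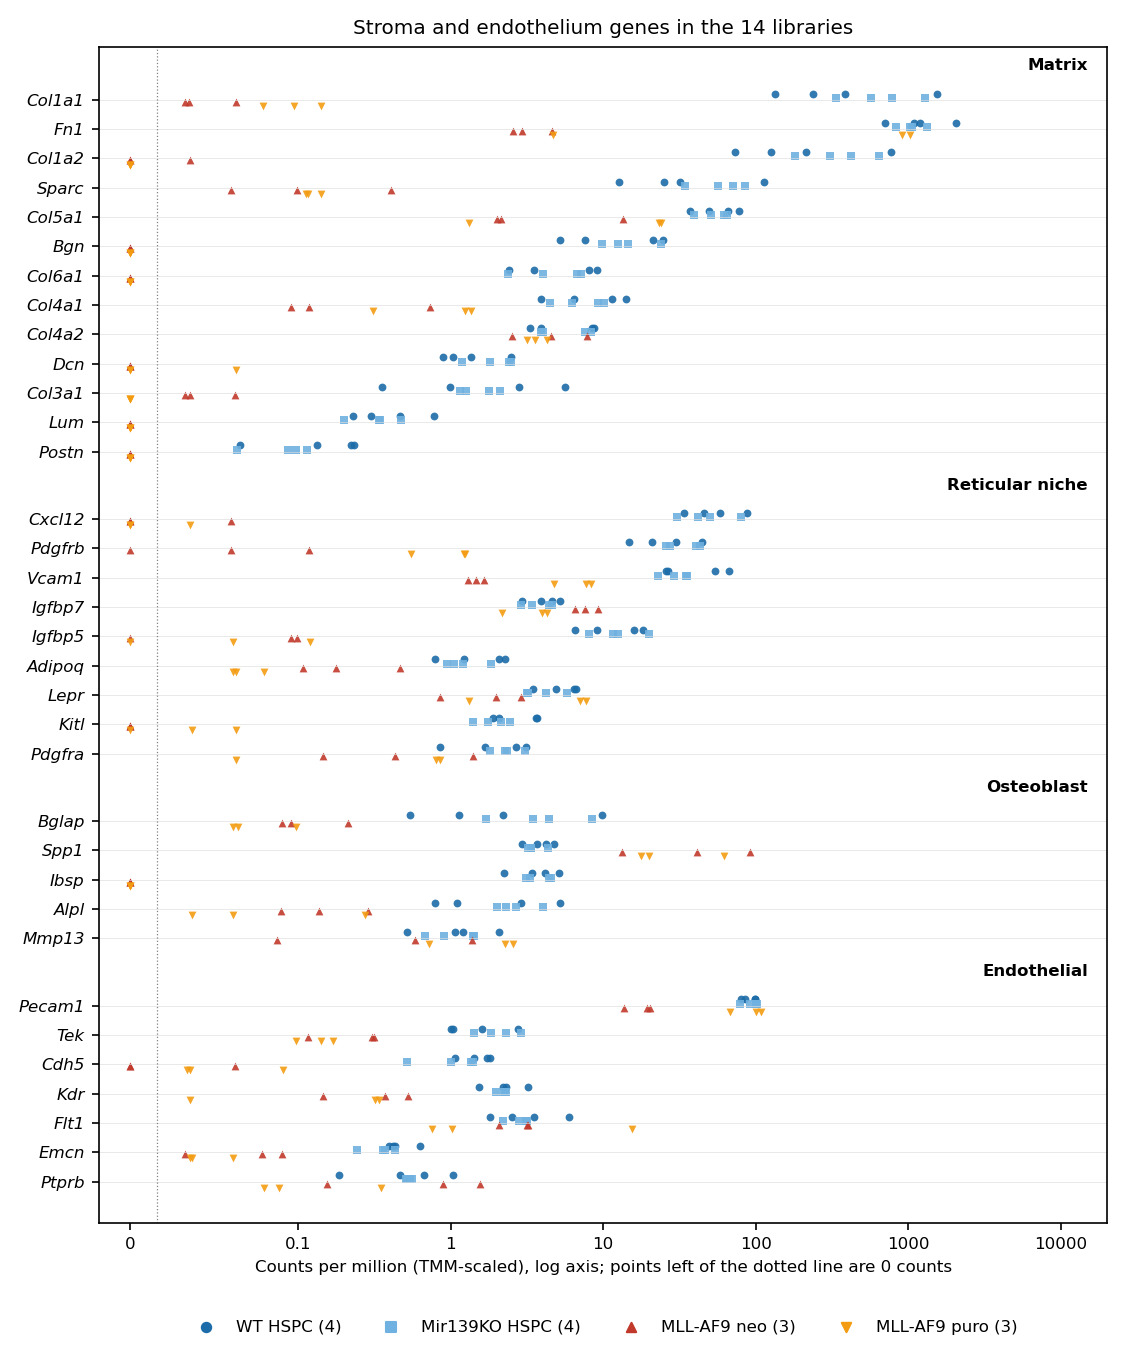
TMM-scaled CPM (log axis) of the 34 genes in each of the 14 libraries, grouped by role, with 1 point per library. Points left of the dotted line are 0 counts. Most matrix genes sit far to the right in WT and Mir139KO HSPCs, Spp1 is the only gene with all MLL-AF9 cultures above all HSPC libraries, and Fn1 and Pecam1 spread over the MLL-AF9 cultures.

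To ask how far these genes were lost from the transformed cultures, MLL-AF9 cells were compared with each HSPC genotype. Against WT HSPCs, 32 of the 34 genes passed the count filter, and 22 of them fell and 1 rose. Over all 17077 genes tested, 29.4% were called lower and 32.8% higher (edgeR quasi-likelihood test, adjusted p under 0.05). Against Mir139KO HSPCs, 31 were tested, 22 fell and 1 rose, where 31.9% of 16953 genes were called lower and 37.3% higher. Both comparisons used the same 6 MLL-AF9 cultures, so they are not independent of each other. In either comparison 18 of the tested genes reached 10 counts in enough libraries only through the HSPCs. Passing in this way favours a difference, and loss from MLL-AF9 cultures was also named in the rule that chose the genes, so the counts describe the set and are no support for it. Against WT HSPCs all 18 were called lower, and against Mir139KO HSPCs the only one that was not was Ptprb. For these genes fold changes and SEs are given as a description, with no p. The median log2 fold change was -3.65 against WT and -3.55 against Mir139KO HSPCs, beside 0.14 and 0.16 for all tested genes. Scaling by total counts only moved the share of called genes that were higher from 52.7 to 68.3% against WT and from 53.9 to 71.4% against Mir139KO HSPCs, and none of the calls on the 34 genes changed direction under it. The medians of the 34 were the same with the 3 tested genes that had 0 counts in every MLL-AF9 culture set at their bound.

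The values did not overlap for 24 of the 34 genes that were lower and 1 that was higher in MLL-AF9 cultures than in WT HSPCs, where 24.6% and 25.9% of all tested genes had no overlap in those directions. For Mir139KO HSPCs, 25 genes were lower without overlap, beside 28.3% of all tested genes. Both counts of lower genes include Lum and Postn, and that for Mir139KO HSPCs also Emcn, which did not pass the count filter. The shares cover only genes that passed it. By role, the genes that fell against WT HSPCs were 9 of 13 for matrix, 6 of 9 for the reticular niche, 3 of 5 for osteoblasts and 4 of 7 for endothelium. Against Mir139KO HSPCs these counts were 9, 7, 3 and 3. The median log2 fold changes of these groups, in the same order, were -7.31, -3.40, -4.14 and -3.0 against WT and -7.75, -3.07, -4.29 and -1.86 against Mir139KO HSPCs. With Bgn and Col6a1 at their bound the matrix medians were -7.30 and -6.66, and the other medians did not move. Where a pair of log2 fold changes is given below in parentheses, the first is against WT and the second against Mir139KO HSPCs. Lum and Postn were not tested in either comparison, and Emcn not against Mir139KO HSPCs, because too few libraries reached 10 counts. With MLL-AF9 replicates 4 and 6 left out, a choice made after the data were seen, 25 of the 34 genes fell in each comparison. Over all genes tested in those fits, 4621 of 16331 were called lower against WT and 5198 of 16162 against Mir139KO HSPCs. Without those replicates the fall became larger for Pdgfrb (-7.28 and -7.58), Col1a1 (-13.94 and -14.30), Col4a1 (-4.79 and -4.54), Col5a1 (-3.54 and -3.47), Vcam1 (-4.24 and -3.72) and Cdh5 (-6.44 and -5.93). Among genes that were not called, Mmp13 turned to -0.80 and -0.67 and Ptprb to 0.35 and 0.48, again without a call.

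**Figure D2:**
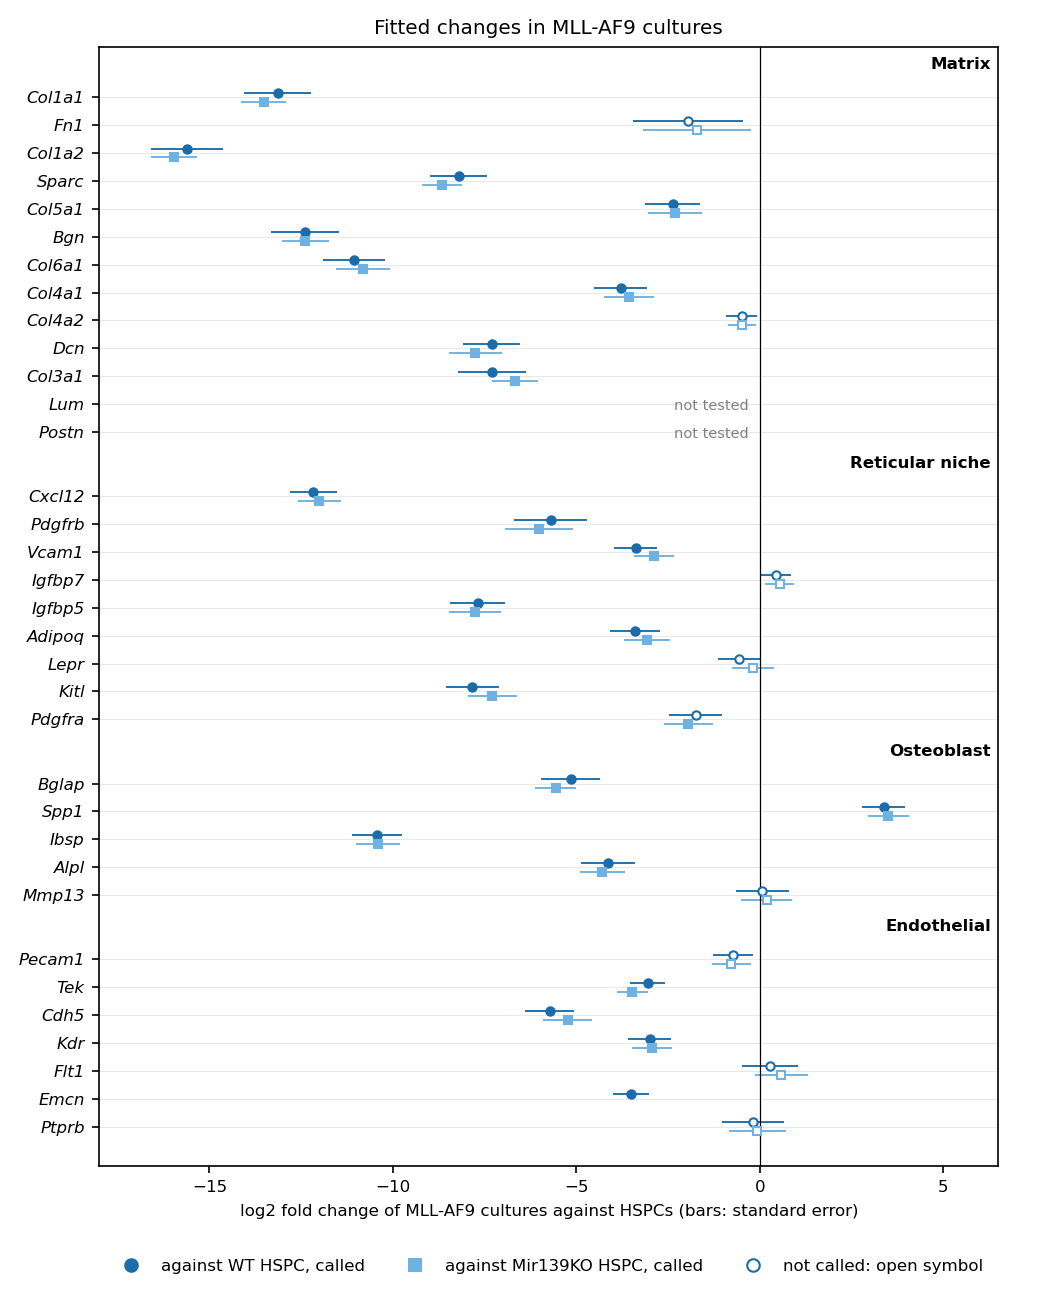
Log2 fold change of MLL-AF9 cultures against WT HSPCs (dark circles) and Mir139KO HSPCs (light squares) for the tested genes, with bars of 1 standard error. Filled symbols passed the test and open symbols did not. The fitted changes of Col1a1, Col1a2, Bgn, Col6a1, Cxcl12 and Ibsp lie furthest to the left, and Spp1 alone is filled on the right.

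Most of the matrix genes were at or near 0 in the cultures. Col1a1 (ENSMUSG00000001506, chr11:94936224-94953042), which codes for the main chain of type I collagen, was at 134, 237, 383 and 1548 CPM in WT and at 1292, 571, 779 and 337 CPM in Mir139KO replicates 1 to 4. The 6 MLL-AF9 cultures were at 0.0181, 0.0490 and 0.141 CPM (lowest, median, highest), from 19 counts in all. No culture came near an HSPC library, and Col1a1 fell, with log2 fold changes of -13.14 (SE 0.92) against WT and -13.52 (SE 0.61) against Mir139KO HSPCs.

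Col1a2 (ENSMUSG00000029661, chr6:4504814-4541544), the partner chain, was at 72.9, 125, 213 and 773 CPM in WT and 645, 308, 421 and 179 CPM in Mir139KO HSPCs. A single count was found over the 6 MLL-AF9 cultures, in replicate 2. With counts pooled over each group and scaled by summed library size, the WT level was 75864 times the MLL-AF9 level. The 95% counting interval of this ratio began at 13615. Intervals and floors cover counting error only.

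Bgn, Dcn and Lum code for small leucine-rich proteoglycans that bind collagen. Bgn had 0 counts in every MLL-AF9 culture. Against a floor of 3 counts per library, it was therefore at least 254-fold lower there than in the WT and at least 263-fold lower than in the Mir139KO libraries. Col6a1, a chain of type VI collagen, also had 0 counts in all of them, which is at least 99.9-fold below WT and at least 88.2-fold below Mir139KO HSPCs. Dcn had 2 counts over the 6 cultures, and the pooled WT level was 206 times the pooled MLL-AF9 level (counting interval 56.3 to 1714). Lum, at 0.199 to 0.780 CPM in HSPCs, had 0 counts in the cultures, at least 7.66-fold lower than in WT and at least 5.87-fold lower than in Mir139KO HSPCs. Postn, the periostin gene, had 22 counts over the WT and 11 over the Mir139KO libraries and 0 in the cultures. Sparc, a collagen-binding protein of bone, fell, with log2 fold changes of -8.21 (SE 0.77) against WT and -8.65 (SE 0.54) against Mir139KO HSPCs. Col3a1, the chain of type III collagen, fell (-7.30, SE 0.93, and -6.66, SE 0.63).

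The basement membrane genes Col4a1 and Col4a2 parted. They lie head to head on chromosome 8 and share 22 exon bases, 11312805 to 11312826. Col4a1 fell by 3.79 (SE 0.73, adjusted p = 8.76e-04) against WT HSPCs, from 3.93 to 14.1 CPM in the 8 HSPC libraries to 0.0906 to 1.36 CPM. Col4a2 was at 3.33 to 8.65 CPM in HSPCs and 2.54 to 7.82 CPM in the cultures, and was not called (-0.50, SE 0.41, adjusted p = 0.312). Its log2 fold change against WT became 0.24 with total counts only and 0.50 with a correction for GC content. Against the 2 WT libraries with a high Gm26917 share alone, Col4a2 was called lower (-1.10, SE 0.41, adjusted p = 0.0428). The ratio of Col4a2 to Col4a1 counts was 0.610 to 0.904 in the HSPC libraries and 2.33 to 38.7 in the cultures.

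Col5a1, a chain of type V collagen, was at 37.3 to 77.1 CPM in HSPCs and 1.33 to 23.8 CPM in the cultures. It fell, with log2 fold changes of -2.37 (SE 0.76, adjusted p = 0.016) against WT HSPCs and -2.31 (SE 0.74, adjusted p = 0.0139) against Mir139KO HSPCs. The call was lost in both comparisons with total counts only (-1.64 and -1.48), with the GC correction (-1.60 and -1.46), with the puro cultures alone (-1.80 and -1.72) and with the HSPC libraries of low share alone (-2.01 and -2.07), and against Mir139KO HSPCs also with those of high share alone (-2.55).

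Fn1 (ENSMUSG00000026193, chr1:71585520-71653200) codes for fibronectin, a matrix protein that cells bind through integrins. It was at 2052, 1094, 1194 and 699.6 CPM in WT and 833, 1062, 1027 and 1325 CPM in Mir139KO replicates 1 to 4. The MLL-AF9 cultures split, with 4.59, 2.58, 2.94 and 4.71 CPM in replicates 1, 2, 3 and 5 and 1025 and 907 CPM in replicates 4 and 6. The last 2 lay inside the HSPC range and the other 4 were far below it. Over all 6 cultures the log2 fold change was -1.96 (SE 1.5, adjusted p = 0.27) against WT and -1.72 (SE 1.47, adjusted p = 0.314) against Mir139KO HSPCs. Of its exon bases, 2.5% are shared with Apol7d on the other strand. Without replicates 4 and 6, Fn1 fell, with log2 fold changes of -8.40 (SE 0.53, adjusted p = 3.55e-06) and -8.14 (SE 0.40, adjusted p = 2.03e-08).

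Among genes of the reticular niche, Cxcl12 (ENSMUSG00000061353, chr6:117168535-117181367), the chemokine that retains stem cells in marrow, was at 33.96, 45.7, 87.1 and 58.3 CPM in WT and 49.8, 30.7, 41.9 and 80.1 CPM in Mir139KO HSPCs. The 6 cultures held 3 counts in all, 2 in replicate 3 and 1 in replicate 5. The pooled WT level was 5457 times the pooled MLL-AF9 level (counting interval 1867 to 26467), and the pooled Mir139KO level was 4975 times it (1702 to 24133). Kitl, which codes for the ligand of Kit, was at 1.40 to 3.68 CPM in HSPCs and also had 3 counts over the cultures. Its pooled WT level was 290 times its pooled MLL-AF9 level (98.7 to 1414).

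Pdgfrb (ENSMUSG00000024620, chromosome 18), a growth factor receptor of pericytes and fibroblasts, was at 14.7, 20.9, 44.1 and 30.1 CPM in WT and 42.8, 27.3, 26.0 and 40.3 CPM in Mir139KO HSPCs. In the MLL-AF9 cultures it was at 0, 0.333 and 1.25 CPM (lowest, median, highest). Every culture was below every HSPC library, and Pdgfrb fell, with log2 fold changes of -5.70 (SE 0.99) against WT and -6.02 (SE 0.94) against Mir139KO HSPCs. Igfbp5, an insulin-like growth factor binding protein, fell (-7.69, SE 0.76, and -7.75, SE 0.70). Vcam1, an adhesion molecule for leukocyte integrins, fell (-3.38, SE 0.59, and -2.88, SE 0.53), and Adipoq, which codes for the adipocyte hormone adiponectin, also fell (-3.40, SE 0.67, and -3.07, SE 0.63).

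The other reticular genes did not behave alike. Pdgfra, the receptor related to Pdgfrb, was not called against WT (-1.75, SE 0.72, adjusted p = 0.0505) and fell, at -1.95 (SE 0.67, adjusted p = 0.0199), against Mir139KO HSPCs. The latter call was lost with total counts only (-1.16), with the HSPC libraries of low (-1.79) or high share (-2.15) alone and without Mir139KO replicate 1 (-1.83). Lepr, the leptin receptor, was at 3.17 to 6.62 CPM in HSPCs and 0.852 to 7.70 CPM in the cultures, and it was not called in either comparison (-0.56, adjusted p = 0.416, and -0.19, adjusted p = 0.785). Without replicates 4 and 6 Lepr fell, with log2 fold changes of -1.58 (SE 0.46, adjusted p = 0.0133) and -1.19 (SE 0.44, adjusted p = 0.0282), and with the GC correction it also fell (-1.96 and -1.64).

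Igfbp7 (ENSMUSG00000036256, chr5:77349240-77408041), a secreted growth factor binding protein, was at 2.95, 4.61, 5.18 and 3.90 CPM in WT and 4.65, 2.91, 3.39 and 4.39 CPM in Mir139KO HSPCs. The cultures were at 2.17, 5.41 and 9.24 CPM (lowest, median, highest), on both sides of the HSPC range. The log2 fold change was 0.44 (SE 0.41, adjusted p = 0.372) against WT and 0.54 (SE 0.40, adjusted p = 0.237) against Mir139KO HSPCs. With the GC correction Igfbp7 was called higher in both (1.26 and 1.54). It shares 7.03% of its exon bases with Polr2b on the other strand.

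Of the osteoblast genes, Ibsp (ENSMUSG00000029306, chr5:104299171-104311469), which codes for bone sialoprotein, was at 2.25, 5.12, 3.44 and 4.16 CPM in WT and 3.32, 3.11, 4.54 and 4.43 CPM in Mir139KO HSPCs. No count was found in any MLL-AF9 culture, which places Ibsp at least 64.7-fold below WT and at least 66.6-fold below Mir139KO HSPCs.

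Bglap (ENSMUSG00000074483, chr3:88383501-88384464) codes for osteocalcin, the hormone and mineral-binding protein of mature osteoblasts. It was at 0.541, 1.14, 2.21 and 9.84 CPM in WT and 8.40, 3.46, 4.44 and 1.71 CPM in Mir139KO HSPCs. The cultures were at 0.0377, 0.0847 and 0.213 CPM (lowest, median, highest), below every HSPC library. Bglap fell, with log2 fold changes of -5.16 (SE 0.81) against WT and -5.57 (SE 0.57) against Mir139KO HSPCs. Reads may be split between Bglap and its near-identical neighbours, so its level is uncertain. Alpl, the bone alkaline phosphatase, fell (-4.14, SE 0.73, and -4.29, SE 0.60).

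Spp1 (ENSMUSG00000029304, chr5:104435118-104441050), the osteopontin gene, went the other way. It was at 2.95, 4.80, 4.24 and 3.68 CPM in WT and 3.36, 3.37, 3.20 and 4.35 CPM in Mir139KO HSPCs. The 6 cultures were at 13.3, 30.6 and 91.8 CPM (lowest, median, highest), all above every HSPC library. Spp1 rose by 3.37 (SE 0.58, adjusted p = 4.27e-04) against WT and by 3.50 (SE 0.57, adjusted p = 1.67e-04) on the log2 scale against Mir139KO HSPCs. Of its exon bases, 18.75% are shared with the annotated gene Gm42793 on the same strand. Mmp13, a collagenase of bone and cartilage, was at 0.520 to 2.08 CPM in HSPCs and 0.0725 to 2.57 CPM in the cultures and was not called (0.06, SE 0.72, adjusted p = 0.945, and 0.19, SE 0.69, adjusted p = 0.817).

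The osteoblast genes thus moved in different directions, and their promoters were compared for the letters ACCACA, the core bound by Runx factors. Of the 34 genes, 25 had a promoter in the RefSeq table used. In the 250 bases before the annotated start, on either strand, ACCACA was present in 3 of the 25, and these were Spp1, Mmp13 and Bglap. It was present in 4614 of all 32851 promoter windows of that length, or 14%. The windows of Ibsp and Alpl did not hold these letters. A match is a description of the window and not evidence of binding. The match began 128 bases before the start in Spp1, 118 in Mmp13 and 132 in Bglap, and none of the windows held a base of an annotated exon. The sequences are from RefSeq on build GRCm38.p6, at chr5:104434861-104435110 (plus strand) for Spp1, chr9:7272264-7272513 (plus strand) for Mmp13 and chr3:88384467-88384716 (minus strand) for Bglap. They run 5′ to 3′ towards the start, with ACCACA or its reverse complement in capitals, and are shown because 1 of the genes rose, 1 did not pass the test and 1 fell.
Spp1: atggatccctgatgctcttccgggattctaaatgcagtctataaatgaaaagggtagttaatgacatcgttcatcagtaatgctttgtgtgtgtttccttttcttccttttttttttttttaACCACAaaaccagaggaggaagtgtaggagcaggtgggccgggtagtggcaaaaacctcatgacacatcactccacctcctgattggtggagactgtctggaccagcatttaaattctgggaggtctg
Mmp13: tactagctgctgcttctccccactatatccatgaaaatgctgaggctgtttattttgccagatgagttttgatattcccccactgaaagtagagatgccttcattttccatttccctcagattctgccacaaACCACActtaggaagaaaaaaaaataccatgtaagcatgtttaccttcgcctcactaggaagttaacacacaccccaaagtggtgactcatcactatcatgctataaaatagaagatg
Bglap: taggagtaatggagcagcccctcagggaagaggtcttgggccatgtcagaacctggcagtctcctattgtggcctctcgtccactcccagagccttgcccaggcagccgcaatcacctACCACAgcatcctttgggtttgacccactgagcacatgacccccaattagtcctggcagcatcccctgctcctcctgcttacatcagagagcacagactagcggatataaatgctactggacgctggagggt
Other common promoter motifs, none of which overlaps ACCACA in its letters, were searched in the same windows and on both strands. TATAAA was found for 9 of the 25 genes and in 12.4% of all windows, CCAAT for 8 genes and in 33.8%, and GGGCGG for 11 genes and in 32.7%. For all these motifs and ACCACA, a gene was counted if any of its windows held the letters. Some genes had several windows, while the percentages are per window, so the numbers are not like for like.

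In the endothelial group, Pecam1 (ENSMUSG00000020717, chr11:106654217-106750628), an adhesion molecule of endothelium, platelets and leukocytes, was the highest per kilobase. It was at 84.7, 99.2, 99.4 and 80.3 CPM in WT and 78.6, 99.8, 101 and 91.6 CPM in Mir139KO HSPCs. The cultures were at 19.3, 20.2 and 13.6 CPM in replicates 1 to 3 and at 108, 67.3 and 101 CPM in replicates 4 to 6. The neo cultures were below every HSPC library, and the puro cultures were around the HSPC range. Over all 6 cultures Pecam1 was not called (-0.74, SE 0.55, adjusted p = 0.259 against WT, and -0.77, SE 0.54, adjusted p = 0.219 against Mir139KO HSPCs). Without replicates 4 and 6 it fell, with log2 fold changes of -1.6 (SE 0.47, adjusted p = 0.0133) and -1.62 (SE 0.43, adjusted p = 0.00474).

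Tek (ENSMUSG00000006386, chr4:94739289-94874976), the angiopoietin receptor, was at 1.601, 2.76, 1.00 and 1.04 CPM in WT and 1.85, 2.31, 2.91 and 1.44 CPM in Mir139KO HSPCs. The cultures were at 0.0977, 0.155 and 0.315 CPM (lowest, median, highest), below every HSPC library. Tek fell, with log2 fold changes of -3.06 (SE 0.47) against WT and -3.47 (SE 0.43) against Mir139KO HSPCs. Cdh5, the cadherin of endothelial junctions, fell (-5.73, SE 0.66, and -5.24, SE 0.67), and Kdr, a receptor of vascular endothelial growth factor, also fell (-3.0, SE 0.59, and -2.94, SE 0.56). Emcn, an endothelial surface sialomucin, fell by 3.51 (SE 0.48) against WT HSPCs.

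Flt1 (ENSMUSG00000029648, chr5:147561604-147726011), another receptor of vascular endothelial growth factor, was at 6.01, 3.50, 1.80 and 2.53 CPM in WT and 2.80, 3.14, 3.15 and 2.19 CPM in Mir139KO HSPCs. The cultures were at 0.753, 2.62 and 15.5 CPM (lowest, median, highest), and replicate 5 alone was above the HSPC range. Flt1 was not called (0.28, SE 0.75, adjusted p = 0.761, and 0.58, SE 0.72, adjusted p = 0.487), and neither was Ptprb, a receptor phosphatase of endothelial cells (-0.19, SE 0.84, adjusted p = 0.854, and -0.07, SE 0.78, adjusted p = 0.945).

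The 2 vectors were then compared, since several of these genes split the cultures. Only 15 of the 34 genes passed the count filter among the cultures, and 1 of them was called, beside 0.873% of 16503 genes tested. It was Pecam1, with means of 92.0 CPM in puro and 17.7 CPM in neo cultures and a log2 difference of 2.39 (SE 0.30, adjusted p = 0.0284). The call held without replicate 5 (2.59, adjusted p = 0.0071) but was lost when any other culture was left out (2.23 to 2.49, with adjusted p up to 0.146) and when replicates 4 and 6 were summed as 1 sample (2.29, adjusted p = 0.131). Replicates 4 and 6 are 2 of the 3 puro cultures and were the most alike of all, so vector and culture cannot be told apart.

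Fn1 had means of 646 CPM in puro and 3.37 CPM in neo cultures, a difference that rests on replicates 4 and 6 (7.61, SE 1.80, adjusted p = 0.123). Vcam1 was at 4.77 to 8.27 CPM in puro and 1.30 to 1.65 CPM in neo cultures (2.24, SE 0.37, adjusted p = 0.0551). Pdgfrb was at 0.547 to 1.25 CPM in puro and 0 to 0.118 CPM in neo cultures (4.26, SE 0.98, adjusted p = 0.116). These 3 genes missed the threshold of the edgeR test but passed it with the DESeq2 Wald test (adjusted p = 3.46e-08, 9.89e-08 and 2.10e-04), and also with all 14 libraries in a single edgeR fit (adjusted p = 0.0023, 0.00406 and 0.00278). Igfbp7 was at 2.17 to 4.30 CPM in puro and 6.52 to 9.24 CPM in neo cultures (-1.15, SE 0.38, adjusted p = 0.248), and only the DESeq2 test called it lower.

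**Figure D3:**
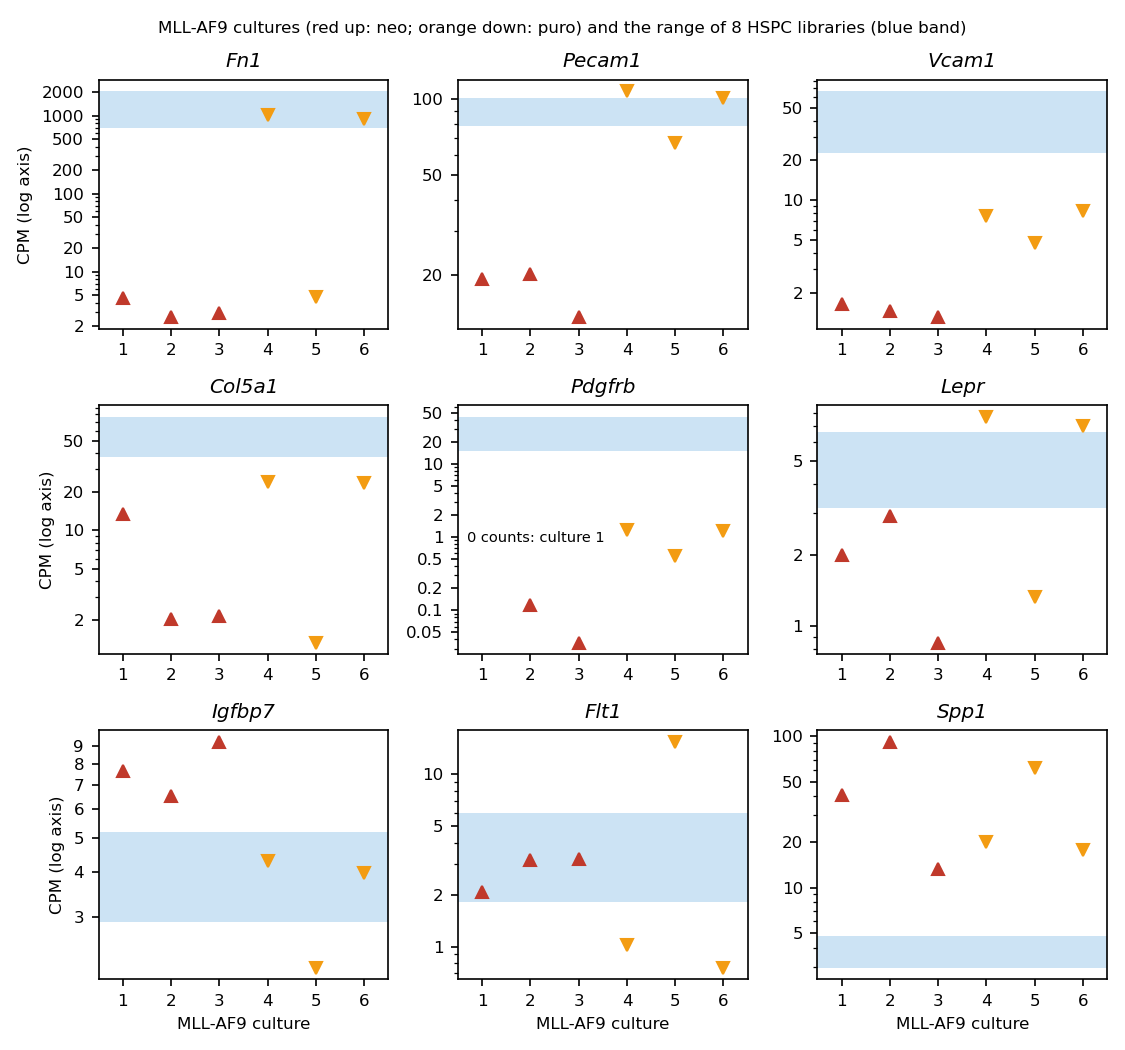
CPM (log axis, a separate range in each panel) of 9 of the genes in MLL-AF9 cultures 1 to 6, with red triangles for neo and orange inverted triangles for puro vectors, and the range of the 8 HSPC libraries as a blue band. Fn1 is inside the band in cultures 4 and 6 only, Pecam1 is near it in all puro cultures, and Spp1 is above it in all 6.

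Among the HSPC libraries, several stromal genes varied widely. Over the 8 libraries the highest was above the lowest by 18.2-fold for Bglap, 15.97-fold for Col3a1, 11.6-fold for Col1a1, 10.6-fold for Col1a2 and 8.95-fold for Sparc, against 2.84-fold for Cxcl12 and 1.29-fold for Pecam1. For the first 5 of these genes both ends were WT libraries. Among the Mir139KO libraries alone the fold was 4.90 for Bglap, 1.84 for Col3a1, 3.83 for Col1a1, 3.59 for Col1a2 and 2.48 for Sparc. From low to high, Col1a1 put the libraries in the order WT 1, WT 2, Mir139KO 4, WT 3, Mir139KO 2, Mir139KO 3, Mir139KO 1 and WT 4. Col1a2 and Bglap gave the same order, and Sparc differed from it in 1 of the 28 pairs of libraries. The ratio of Col1a2 to Col1a1 counts was 0.499 to 0.555 in all 8 libraries while their levels moved more than 10-fold. Cxcl12 was out of that order in 11 pairs, Ibsp in 14 and Pecam1 in 13, and Col1a1 counts were 3.94 to 26.5 times those of Cxcl12. Fn1 and Vcam1 ran close to the opposite order, with 26 and 25 of the 28 pairs reversed. Neither a wide range nor a reversed order was particular to the set. Outside it, the neutrophil granule gene Ltf ranged 76.1-fold and the macrophage marker Mrc1 had 23 pairs reversed. The libraries are only 8, share their depth scaling and fall into 2 classes, so these orders are a description.

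**Figure D4:**
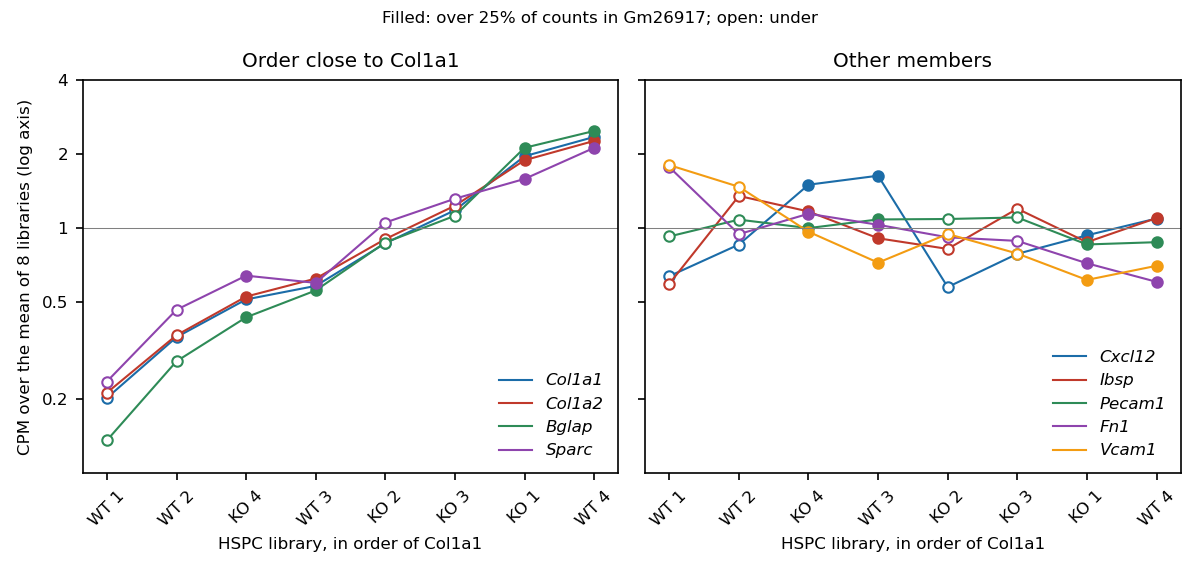
CPM of each HSPC library over the mean of the 8 libraries (log axis), with libraries placed from low to high Col1a1 and filled points for those with over 25% of counts in Gm26917. Col1a2, Bglap and Sparc rise with Col1a1 in the left panel, while in the right panel Fn1 and Vcam1 run mostly downwards and Pecam1 stays nearly flat.

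The class by Gm26917 share moved with part of the set, a smaller part than over all genes. Between the 4 libraries over and the 4 under the 25% share, 11 of the 34 genes did not overlap, where 65.2% of 15056 tested genes did not. Of the 11 genes, 10 were higher in the high-share libraries, from Col5a1 at 1.52-fold to Col3a1 at 3.29-fold, and they included Bgn (2.40-fold), Col6a1 (2.52-fold), Alpl (2.39-fold), Cxcl12 (1.81-fold) and Pdgfrb (1.77-fold). How all tested genes split by direction was not counted, so this direction is no result about the set. Flt1 was lower in the high-share libraries, at 0.590 of its level in the others. Col1a1, Col1a2 and Bglap had higher means in the high-share libraries as well (2.07-, 1.95- and 2.31-fold), but their values overlapped between the classes. Of the 12 pairs of libraries within a class none was out of the Col1a1 order for Col1a2 or Bglap. Against the WT libraries of low share alone 22 of the genes were called lower in MLL-AF9 cultures, and against those of high share alone 23 were. Over all genes tested in those fits, 3821 of 18331 and 5432 of 18244 were called lower. For Mir139KO HSPCs the counts were 22 and 20, beside 4525 of 18251 and 5148 of 18132 over all genes. The part of the share in these levels was not tested.

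Loss of Mir139 was asked about in the same genes. Of the 34 genes, 33 were tested between Mir139KO and WT HSPCs and none was called (edgeR), and 0 of them had an unadjusted p under 0.05, where 0% of 15056 genes were called. Over all genes 86 had an unadjusted p under 0.05 in edgeR, 90 in DESeq2 and 81 in limma-voom, and none of these tools called a gene. In edgeR this number was 536 with the Gm26917 share class as a covariate. It was 3279 of 15640 in the low-share libraries alone and 558 of 14699 in the high-share libraries alone. The tools used the same libraries, so their shared lack of calls does not show that Mir139 loss left these genes unchanged. The log2 fold changes of the set ran from -0.64 for Col3a1 (SE 0.70) to 0.46 for Dcn (SE 0.39). The smallest unadjusted p in the set was 0.124, for Kitl, at 2.82 CPM in WT and 1.94 CPM in Mir139KO HSPCs (-0.56, SE 0.33). For Col1a1 the SE of 0.73 was larger than the log2 fold change of 0.36, so a difference of that size was not detectable among libraries that vary this much.

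Further genes of the same roles were counted from wider lists. Their counts, and those of the receptors and blood cell markers further below, stand beside the shares over all tested genes. Against WT HSPCs 29.4% of all tested genes were called lower and 32.8% higher, and against Mir139KO HSPCs 31.9% and 37.3%. Shares near these are no result about a list. In every list some tested genes reached 10 counts in enough libraries only through 1 of the groups compared. Passing in this way favours a difference, so the counts describe the lists and are no support for a change. Of the other matrix genes, 5 passed only through the HSPCs and 1 only through the cultures in each comparison. Of 18 other matrix genes, 15 were tested against WT HSPCs and 9 fell and 3 rose, and against Mir139KO HSPCs 10 fell and 3 rose (median log2 fold changes -2.13 and -1.91). Among the highest of them, Col5a2, a second chain of type V collagen, fell (-8.13, SE 0.79, and -8.59, SE 0.60), and Col6a3, a chain of type VI collagen like Col6a1, rose by 4.32 (SE 0.64) and 4.89 (SE 0.47). Serpinf1, which codes for an inhibitor of vessel growth, was at 28.0 to 68.2 CPM in HSPCs and 16.9 to 56.5 CPM in the cultures and was called lower against Mir139KO but not against WT HSPCs (-0.57, adjusted p = 0.18, and -0.77, adjusted p = 0.0449). Pcolce, an enhancer of collagen processing, was not called (-0.10 and -0.21).

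Of 18 other reticular, adipose and mural genes, 16 were tested against WT HSPCs and 3 fell and 6 rose, and against Mir139KO HSPCs 14 were tested and 1 fell and 7 rose (median log2 fold changes 0.90 and 1.20). Of the tested genes, 3 against WT and 5 against Mir139KO HSPCs passed the count filter only through the MLL-AF9 cultures. Another 2 and 1 passed it only through the HSPCs. Pparg, the regulator of fat cells and also of macrophages, rose by 5.10 (SE 0.64) in both comparisons, from 1.94 to 3.51 CPM in HSPCs to 17.5 to 157 CPM in the cultures. Lpl, the lipoprotein lipase gene, rose by 3.20 (SE 0.54) and 3.54 (SE 0.55), and Acta2, the smooth muscle actin gene, by 1.63 (SE 0.52) and 1.20 (SE 0.46). Angpt1, which codes for a ligand of Tek, was not called (-0.29 and -0.28).

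Of 12 other osteoblast genes, 7 were tested against WT HSPCs and 5 rose and 2 fell, and 8 against Mir139KO HSPCs, of which 5 rose and 3 fell (median log2 fold changes 2.58 and 1.78). Runx2, the transcription factor that starts the osteoblast programme, rose by 3.36 (SE 0.33, adjusted p = 9.67e-06) and 3.47 (SE 0.28, adjusted p = 1.12e-06), from 30.2 to 65.4 CPM in HSPCs to 354 to 642 CPM in the cultures. Col11a2, a chain of type XI collagen, rose by 1.59 (SE 0.50) and 1.18 (SE 0.35), while its partner Col11a1 fell (-7.63, SE 0.74, and -8.31, SE 0.59).

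Of 20 other endothelial genes, 15 were tested in each comparison, and 7 fell and 1 rose against WT and 6 fell and 1 rose against Mir139KO HSPCs (median log2 fold changes -0.98 and -0.71). Eng, a coreceptor of the TGF-beta family, fell (-5.31, SE 0.63, and -5.30, SE 0.57), Cd34, a sialomucin of endothelium and progenitors, fell as well (-5.50, SE 0.71, and -5.64, SE 0.69), as did Tie1, a receptor related to Tek (-4.77, SE 0.75, and -4.94, SE 0.71). Stab1, a scavenger receptor of sinusoids and macrophages, was not called (0.85 and 0.66).

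The receptors through which blood cells bind these niche signals were measured on the other side. Of the 10 listed, 5 fell and 1 rose against WT HSPCs, and of 9 tested against Mir139KO HSPCs 5 fell and 3 rose (median log2 fold changes -1.43 and -1.36). Cxcr4, the receptor of Cxcl12, fell, with log2 fold changes of -2.32 (SE 0.23, adjusted p = 9.98e-06) and -2.37 (SE 0.19), from 287 to 430 CPM in HSPCs to 57.6 to 89.7 CPM in the cultures. Kit, the receptor of Kitl, fell, with log2 fold changes of -1.56 (SE 0.31, adjusted p = 0.00111) and -1.65 (SE 0.31). Ackr3, the scavenging receptor of Cxcl12, was at 0.129 to 0.401 CPM in HSPCs and 0 to 0.282 CPM in the cultures and was not called (-1.73, adjusted p = 0.0548).

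Among the integrins, Itgb7 fell (-6.06, SE 0.72, and -6.19, SE 0.70), and Itga5, a chain of the main fibronectin receptor, also fell (-1.29, SE 0.29, and -1.36, SE 0.23). Itgav, a chain of receptors for osteopontin and vitronectin, rose by 2.34 (SE 0.38, adjusted p = 3.04e-04) and 2.70 (SE 0.25), from 8.22 to 23.1 CPM to 63.0 to 98.2 CPM. Itgb1 and Itga4, which pair in the receptor of Vcam1, were called higher against Mir139KO but not against WT HSPCs (0.64, adjusted p = 0.245, and 0.95, adjusted p = 0.0226 for Itgb1, and 0.43, adjusted p = 0.335, and 0.78, adjusted p = 0.0297 for Itga4). Cd44, a receptor of hyaluronan and osteopontin, was not called (0.50, adjusted p = 0.225, and 0.62, adjusted p = 0.0506).

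Markers of blood cell types that such preparations may hold changed as well. The counts that follow are against WT HSPCs, with summed levels of each list. The count filter was passed only through the HSPCs by 2 stem and progenitor, 5 macrophage and 3 megakaryocyte markers. The same was true of 4 erythroid, 4 B and T cell and 1 neutrophil marker, and 1 osteoclast marker passed only through the cultures. Of 12 stem and progenitor markers, 7 fell and 1, Meis1, rose, and the sum was 468 to 662 CPM in HSPCs and 181 to 1091 CPM in the cultures. Of 12 macrophage markers, 9 fell and 1, Adgre1, rose (398 to 966 CPM in HSPCs, 66.3 to 323 CPM in the cultures). Replicates 4 and 6 had the highest sums among the cultures for this list (323 and 287 CPM) and for the stem and progenitor list (1091 and 1066 CPM). Their sums were also the highest for the megakaryocyte, erythroid and osteoclast lists, but not for the neutrophil and the B and T cell lists. Of 11 megakaryocyte markers 10 fell (224 to 1037 CPM against 22.3 to 58.7 CPM), and of 8 erythroid markers all 7 tested fell (1187 to 2072 CPM against 2.31 to 15.6 CPM), with Hbb-bs at 0 counts in every culture. Of 8 B and T cell markers all 7 tested fell (44.0 to 109 CPM against 1.70 to 7.43 CPM). Neutrophil granule genes overlapped between the groups (379.5 to 11975 CPM against 280.1 to 4036 CPM, with 2 of 8 lower), and WT replicate 2 was the lowest HSPC library. Of 8 osteoclast markers 3 were tested, and Mmp9 was lower and Atp6v0d2 higher. Of the genes on all lists, Acp5, Alas2, Ms4a1, Timp3, Aspn, Ogn and Smpd3 had 0 counts in every library, and no level is read from them. The part of these cells in the levels of Fn1, Vcam1, Pecam1 and Flt1, which they can also express, was not tested.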

How the data were processed

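Total RNA was depleted of ribosomal RNA (KAPA RNA HyperPrep with RiboErase) and sequenced. The authors aligned reads with STAR 2.5.3e to GRCm38/mm10, counted them per GENCODE M15 gene with featureCounts 1.6.0 and deposited whole counts that are not normalised, in a pair of files whose 735700 values for these libraries were identical. The submitters' notes also list FastQC 0.11.8, MultiQC and DESeq2 1.22.2. Another 10 columns were those of another series and were left out. Strand handling in counting is not given in the sources used here, so overlapping genes are named as such.

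Genes were kept with at least 10 counts in as many libraries as the smaller group compared. Counts were scaled with TMM factors and tested with the robust quasi-likelihood test of edgeR 4.0.16 (limma 3.58.1, R 4.3.3), in a fit of only the groups compared. P-values were adjusted by Benjamini-Hochberg over all tested genes, with a threshold of 0.05, and an SE is the log2 fold change over the root of F. Adjusted p-values in the text are from this test unless another is named. The steps were tested on simulated data. Alternatives were RLE factors, total counts only, DESeq2 1.42.0, limma-voom, 2 other filters, all 14 libraries in 1 fit, a replicate block, a GC correction, Gm26917 left out, each replicate left out, single vectors, single share classes, and replicates 4 and 6 summed or left out. Between genotypes, share class as a covariate was a further alternative. The 34 genes and all lists were chosen with earlier results of these data known. Values per library are given for the 3 genes of each role with the highest mean level per kilobase and for those called higher in MLL-AF9 cells or between vectors. Of the further lists up to 4 genes are named, those with the highest mean level, and the receptors are given. Some genes of these lists are not reported here. In the blood cell lists, the genes that changed against the direction of their list were named after their values were seen. Coordinates are from GENCODE M21 on GRCm38, which placed 52403 of the 52550 genes.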

Additional observations from a re-analysis of the deposited data

Results flagged for a closer look

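Among 70 groups of 4 or 6 libraries examined for the 34 genes, 2 held a library far from the others by Dixon's criterion. Chance gives this in about 1 in 20 groups, so 2 are no more than chance would give. Spp1 was at 4.346 CPM in Mir139KO replicate 4, above the 3.20 to 3.37 CPM of the other Mir139KO libraries. Flt1 was at 15.48 CPM in MLL-AF9 replicate 5, while the other cultures were at 0.753 to 3.23 CPM.

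Pecam1 differed between the vectors, with a log2 difference of 2.39 between puro and neo cultures (edgeR, adjusted p = 0.0284, higher in 3 of 3 puro cultures than in all neo cultures). The call was lost without replicate 1, 2, 3, 4 or 6 (adjusted p = 0.0751, 0.119, 0.146, 0.131 and 0.128) and held without replicate 5 (adjusted p = 0.0071).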

How the results depend on the processing

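The 22 genes that fell and the 1 that rose in each comparison with HSPCs, and Pecam1 between vectors, gave 47 results. None changed direction in any alternative, and 43 were called in every one. The exceptions were Col5a1 in both comparisons, Pdgfra and Pecam1, which lost the call in 19 of 1283 values in all. In each comparison with HSPCs, 18 tested genes had passed the count filter only through the HSPCs. Loss from MLL-AF9 cultures was also named in the rule for the set, so stable calls on these genes are no support for it. The number of the 34 genes called lower ran from 10 to 26 over the alternatives in either comparison. It was 10 in both with a mean of at least 100 counts, where fewer genes (17) were tested, and 22 to 23 against WT and 21 to 24 against Mir139KO HSPCs when 1 replicate was left out. The number called higher was 2 against WT with the GC correction, with or without the block, and 2 against Mir139KO HSPCs with the GC correction, with or without the block, with total counts only and with neo cultures only. The added gene was Igfbp7 with the GC correction, total counts or neo cultures. With total counts only, the median over all genes tested moved, on the log2 scale, from 0.14 to 0.69 against WT and from 0.16 to 0.84 against Mir139KO HSPCs.

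Between Mir139KO and WT HSPCs 1 gene, not among the 34, was called in the libraries under the 25% share alone and 1 in those over it alone. Between vectors, where 144 genes were called, the count was 1326 with DESeq2, 221 with no filter, 692 with all 14 libraries in 1 fit, 252 with the GC correction and block, 5 with replicates 4 and 6 summed, and 0 to 990 when 1 culture was left out, the highest without replicate 5. Of the 34 genes, 4 were higher in puro cultures with DESeq2, 4 with all 14 libraries, 0 with replicates 4 and 6 summed and 0 to 3 when 1 culture was left out, and 1 was lower with DESeq2. The causes of these shifts were not tested.

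Samples with the same replicate number did not deviate together in every pair. The correlation of their deviations was -0.57 to 0.63 between the HSPC genotypes, -0.05 to 0.09 between MLL-AF9 and WT, 0.02 to 0.19 between MLL-AF9 and Mir139KO and -0.31 to 0.44 between the vectors. Between genotypes it was positive for numbers 2 and 4, whose libraries share a Gm26917 class, and negative for numbers 1 and 3, whose libraries do not. Pairing cannot be told apart from that class there, and no pairing was assumed. With the replicate block, 9300 genes were called against WT, 11455 against Mir139KO HSPCs, 0 between genotypes and 214 between vectors, and 24 of the 34 genes were lower in each comparison with HSPCs. Over all genes tested with the block, 4242 of 17077 were lower against WT and 5394 of 16953 against Mir139KO HSPCs.

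At this depth, genes such as Lum and Postn, with few counts in any library, cannot be compared between groups beyond the limits given, and with 3 or 4 libraries in a group, differences of the size of the spread between HSPC libraries could not be detected.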
